A study of Mus musculus with 6 samples.

Results

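The 9 genes described here mark follicular dendritic cells and the stroma and vessels of lymphoid follicles. They were followed in the colon of mice labelled as knockouts of Tnfrsf1a, the gene of TNFR1. The genes are Cr2, Fcer2a, Coch, Mfge8, Enpp2, Pdpn, Madcam1, Vcam1 and Icam1, taken by symbol as a list out of 30330 genes with values. This list and the other gene lists below were chosen with earlier results of these data known. Shares set beside those of all genes are therefore no test of the lists. For each gene the TPM of its transcripts were added in each library. TPM is an abundance per length, set to the same total in each library. RNA came from whole colons of 3 mice labelled Tnfrsf1a-/- (R1ko) and 3 labelled wild type (WT). All animals were 12-week-old males, and every sample carries the strain label C57Bl/6J. The RNA was polyadenylated, and the design text puts sequencing at 30 M paired-end reads a sample on average. The depth of each library is unknown because the table gives TPM. The labels do not say which part of Tnfrsf1a the knockout allele removes.

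Follicular dendritic cells are stromal cells of B cell follicles that hold antigen on complement and Fc receptors and display it to B cells. In mice, TNF acting through TNFR1 and lymphotoxin acting through its own receptor are both known to be needed for networks of these cells. The colon carries such tissue in colonic patches and isolated lymphoid follicles, which make up a small part of a whole-colon sample. Cr2 and Fcer2a are made by B cells as well as by follicular dendritic cells, and the other members have further sources in fibroblasts, endothelium, smooth muscle or adipose tissue. In bulk RNA, fewer cells of a type and less RNA per cell cannot be told apart.

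No member passed the test between genotypes. All 9 had a lower mean TPM in R1ko colons, by margins from 0.459-fold for Cr2 to 0.970-fold for Coch, and the R1ko and WT values overlapped for each of them. For 8 of the 9, all but Coch, R1ko replicate 3 was the highest of the 3 R1ko libraries, and it lay within the WT range or, for Icam1, above it. Genes were tested with limma on log2(TPM + 0.5), with Benjamini-Hochberg adjustment over 14248 genes whose mean reached 1 TPM. For genes of low TPM the added 0.5 makes these log2 differences smaller than the ratio of the TPM. Of the members, 7 reached that mean and were tested, while Madcam1 and Coch lay below it. Over all genes 38, or 0.267%, passed an adjusted p of 0.05 (13 higher and 25 lower in R1ko), and 0 of the 7 members did. At an unadjusted p below 0.05, 3 of the 7 members were lower in R1ko (Cr2, Fcer2a and Enpp2), against 1.97% of all genes tested. The median log2 fold change of the 7 members was −0.37, beside 0.02 for all genes. All 7 were negative, beside 44.3% of all genes tested.

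**Figure D1:**
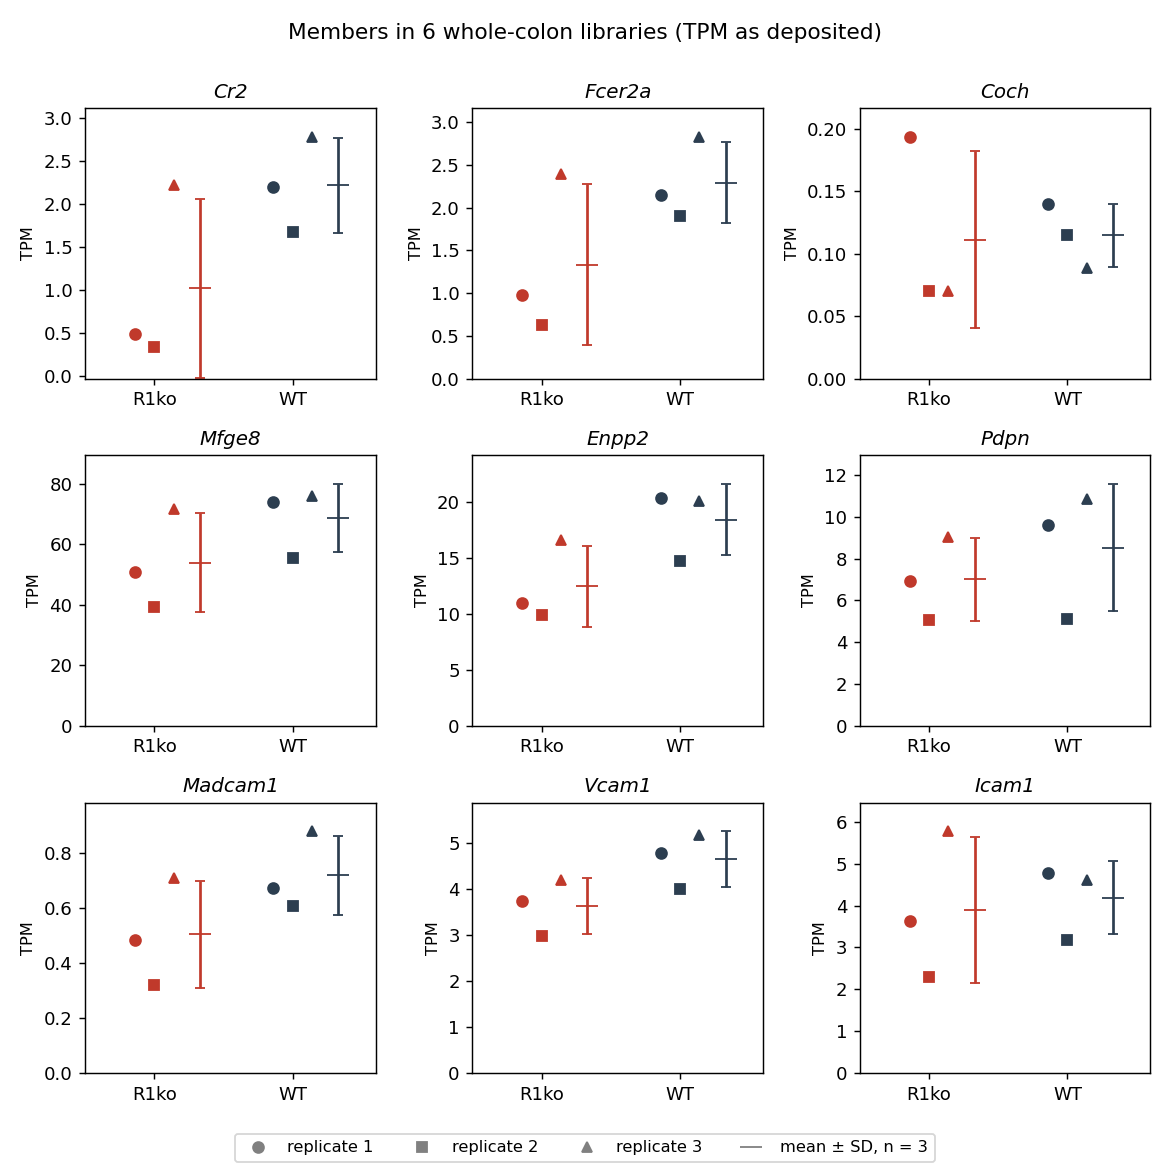
TPM of each member (vertical axes, from 0 or just below it) in 3 R1ko and 3 WT libraries. Symbols mark the replicates and the bars the mean ± SD. R1ko replicates 1 and 2 lie low for Cr2 (0.494 and 0.342 TPM), while R1ko replicate 3 (2.22 TPM) lies among the WT libraries.

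WT replicate 2 stood apart from the other libraries. Transcripts without a gene name held 27.4% of its TPM, against 1.86 to 7.23% in the other 5, which lowers every other value in that library. Its factor by the median-of-ratios method was 0.786, against 0.918 to 1.13 in the others, and values after division by these factors are given beside the TPM as deposited. After scaling, 6 genes passed, or 0.0421% (5 higher and 1 lower in R1ko), and 0 of the 7 members did. At an unadjusted p below 0.05, 4 of the 7 were then lower in R1ko (Cr2, Mfge8, Enpp2 and Vcam1), against 5.74% of all genes. With TPM as deposited, the groups did not overlap, with R1ko lower, for 0 of the 7 members and 1.82% of all genes. After scaling this held for 2 of the 7, Enpp2 and Vcam1, and for 9.18% of all genes. Over all genes, only those with lower TPM in R1ko were counted in these ways. Counts below of genes with higher TPM at an unadjusted p or without overlap therefore have no share beside them. The targeted gene, Tnfrsf1a, summed over its transcripts, averaged 44.2 TPM in R1ko and 59.4 TPM in WT. These values overlapped as deposited but not after scaling, and the gene did not pass in either (limma adjusted p = 0.286 after scaling). Its transcript ENSMUST00000032491 averaged 23.2 TPM in R1ko and 55.5 TPM in WT (limma adjusted p = 0.197 over transcripts, or 0.0168 after scaling). Another Tnfrsf1a transcript, ENSMUST00000125880, averaged 14.8 TPM in R1ko and 1.10 TPM in WT (limma log2 fold change 3.25, adjusted p = 0.00124 over transcripts), and on both transcripts the libraries separated by their labelled genotype.

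The stretches of DNA before the start sites of 4 members are shown first, since Madcam1 and Icam1 are textbook targets of the factor NF-κB, which TNFR1 activates, and since Fcer2a was the member closest in pattern to Cr2 across the libraries. RefSeq promoters on GRCm38.p6 were found for 7 of the 9 members, and none was used here for Enpp2 and Vcam1. Each run is the 250 bases before the start, 5′ to 3′ on the gene's strand. The windows are chr10:79664309-79664558 (plus strand) for Madcam1, chr9:21015690-21015939 (plus) for Icam1, chr1:195176720-195176969 (minus) for Cr2 and chr8:3694175-3694424 (minus) for Fcer2a. Capitals mark matches, on either strand, to GGANTTTCC, a short form of the NF-κB motif, and to TATAAA. These motifs were chosen with the sequences in view.
Madcam1: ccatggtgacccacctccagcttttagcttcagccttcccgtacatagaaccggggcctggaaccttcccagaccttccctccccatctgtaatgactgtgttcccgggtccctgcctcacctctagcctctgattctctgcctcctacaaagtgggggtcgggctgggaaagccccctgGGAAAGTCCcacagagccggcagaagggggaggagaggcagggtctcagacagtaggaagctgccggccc
Icam1: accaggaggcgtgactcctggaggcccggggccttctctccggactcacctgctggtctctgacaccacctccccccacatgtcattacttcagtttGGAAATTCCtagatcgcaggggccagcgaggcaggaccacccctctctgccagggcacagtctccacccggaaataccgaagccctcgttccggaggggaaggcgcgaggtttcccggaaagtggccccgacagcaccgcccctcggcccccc
Cr2: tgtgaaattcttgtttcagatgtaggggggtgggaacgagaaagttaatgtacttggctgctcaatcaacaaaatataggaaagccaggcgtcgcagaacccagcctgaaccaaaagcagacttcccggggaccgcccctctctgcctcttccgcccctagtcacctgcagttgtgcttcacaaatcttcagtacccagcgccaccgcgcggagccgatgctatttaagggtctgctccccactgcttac
Fcer2a: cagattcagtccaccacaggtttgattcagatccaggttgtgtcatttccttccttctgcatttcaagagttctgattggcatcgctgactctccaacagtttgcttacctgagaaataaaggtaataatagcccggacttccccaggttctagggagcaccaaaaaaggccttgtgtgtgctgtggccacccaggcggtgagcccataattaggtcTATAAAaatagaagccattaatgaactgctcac
Madcam1 held GGANTTTCC at −70 to −62 from the start, and Icam1 held it at −153 to −145, both on the other strand. No matches overlapped. Fcer2a has 3 RefSeq windows; the one shown, next to the start of the transcript with values, held TATAAA at −33 to −28, and the others held no match. Among 32851 promoters of the same length, GGANTTTCC occurred in 1.07% and TATAAA in 12.4%. The Cr2 window held none of these letters, nor did the windows of Coch, Mfge8 and Pdpn. A match describes the letters and not a site in use.

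Among the receptors that hold antigen, Cr2 showed the largest difference of the members. Cr2 (ENSMUSG00000026616; GRCm38 chromosome 1, 195136811 to 195176716, minus strand, in GENCODE M21) encodes the complement receptors CD21 and CD35, which in the mouse are spliced from the same gene. It measured 0.494, 0.342 and 2.22 TPM in R1ko replicates 1, 2 and 3, against 2.20, 1.67 and 2.78 TPM in WT replicates 1, 2 and 3. R1ko replicates 1 and 2 lay below every WT library, and R1ko replicate 3 lay within the WT range. The means were 1.02 ± 1.04 TPM in R1ko and 2.22 ± 0.554 TPM in WT (SD, n = 3 each; two-sided exact permutation p = 0.3, where 3 against 3 cannot give less than 0.1). The log2 fold change was −1.03 ± 0.36 (SE; limma adjusted p = 0.584, or 0.424 after scaling). Without R1ko replicate 3 it was −1.55 with a limma adjusted p of 0.00333, in a fit in which 209 genes, or 1.47%, passed. Over all its alternatives the adjusted p of Cr2 ran between 0.00333 and 1. For the other 6 tested members the lowest adjusted p under any alternative was 0.14, for Fcer2a.

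Fcer2a (ENSMUSG00000005540; chromosome 8, 3681737 to 3694175, minus strand) encodes CD23, the low-affinity receptor for IgE on follicular B cells and follicular dendritic cells. It had 0.975, 0.628 and 2.40 TPM in the R1ko libraries, against 2.15, 1.91 and 2.82 TPM in the WT libraries. The order of the libraries was close to that of Cr2, with R1ko replicates 1 and 2 below all WT libraries and R1ko replicate 3 among them. Its log2 fold change was −0.71 ± 0.33 (SE; limma adjusted p = 1.0, or 0.441 after scaling). Of 8 transcripts listed for Fcer2a only 1 had values, so its forms could not be compared.

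Coch (ENSMUSG00000020953; chromosome 12, 51593341 to 51605771) encodes cochlin, a secreted protein made by follicular dendritic cells and in the inner ear. It measured 0.193, 0.0704 and 0.0699 TPM in R1ko and 0.139, 0.115 and 0.0889 TPM in WT. Coch thus stayed below 0.2 TPM in each library, and no difference between groups was detectable at this level.

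Among the secreted products, Mfge8 and Enpp2 were the most abundant members. Mfge8 (ENSMUSG00000030605; chromosome 7, 79133768 to 79149060, minus strand) encodes the milk fat globule protein that bridges phosphatidylserine on dying cells to integrins of phagocytes. It had 50.7, 39.5 and 71.8 TPM in R1ko, against 74.2, 55.7 and 76.0 TPM in WT. After scaling it had 47.7, 43.0 and 67.4 in R1ko, against 65.6, 70.8 and 69.2 in WT. The WT libraries then lay close together, and R1ko replicate 3 again sat inside their range. The log2 fold change was −0.37 ± 0.22 (SE; limma adjusted p = 1.0, or 0.4296 after scaling).

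Enpp2 (ENSMUSG00000022425; chromosome 15, 54838901 to 54952892, minus strand) encodes autotaxin, the enzyme that makes lysophosphatidic acid and is known from stroma and high endothelial venules of lymph nodes. It measured 10.9, 9.85 and 16.6 TPM in R1ko, against 20.3, 14.7 and 20.1 TPM in WT. R1ko replicate 3 exceeded WT replicate 2 with TPM as deposited. After scaling every R1ko library was below every WT library, at 10.3, 10.7 and 15.5 in R1ko against 18.0, 18.7 and 18.3 in WT. The log2 fold change was −0.56 ± 0.23 (SE; limma adjusted p = 0.994) and −0.59 ± 0.15 after scaling (adjusted p = 0.334). Adipose tissue is a known source of autotaxin. The summed TPM of 8 adipocyte genes was 297.1, 462.9 and 430.5 in R1ko and 450.8, 73.1 and 182.1 in WT. All 8 were higher in R1ko at an unadjusted limma p below 0.05 (7 after scaling), and the share of all genes higher at that p was not counted. The part of these genes in the value of Enpp2 was not tested.

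Pdpn, Vcam1, Icam1 and Madcam1 act at the cell surface. Pdpn (chromosome 4, 143267431 to 143299564, minus strand) encodes podoplanin, a mucin-like protein of lymphoid stroma and of lymphatic endothelium that binds CLEC-2 on platelets and dendritic cells. The table held 2 Ensembl genes under this symbol, ENSMUSG00000028583 and ENSMUSG00000096951, each with 2 transcripts. The transcripts of either gene had the same values as those of the other in every library, and the values here are the sum over both genes. Pdpn had 6.94, 5.07 and 9.03 TPM in R1ko, against 9.61, 5.10 and 10.9 TPM in WT. The low libraries were R1ko replicate 2 and WT replicate 2, which were nearly equal, and the groups overlapped before and after scaling. Its log2 fold change was −0.23 ± 0.27 (SE; limma adjusted p = 1.0).

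Vcam1 (ENSMUSG00000027962; chromosome 3, 116109949 to 116129688, minus strand) encodes the ligand of the integrin α4β1 on lymphocytes. Its levels were 3.74, 2.98 and 4.19 TPM in R1ko and 4.77, 3.99 and 5.18 TPM in WT. Only R1ko replicate 3 and WT replicate 2 crossed. After scaling the groups separated, at 3.52, 3.25 and 3.93 in R1ko against 4.22, 5.08 and 4.71 in WT. The log2 fold change was −0.32 ± 0.25 (SE; limma adjusted p = 1.0) and −0.35 ± 0.12 after scaling (adjusted p = 0.393).

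Icam1 (ENSMUSG00000037405; chromosome 9, 21015985 to 21028817) encodes the ligand of the integrin LFA-1. It had 3.62, 2.29 and 5.77 TPM in R1ko, against 4.78, 3.18 and 4.61 TPM in WT, and the highest of the 6 libraries was R1ko replicate 3. After scaling the R1ko libraries lay between 2.499 and 5.41, while the WT libraries lay between 4.05 and 4.23. Its log2 fold change was −0.15 ± 0.28 (SE; limma adjusted p = 1.0), and it turned to 0.14 without R1ko replicate 2.

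Madcam1 (ENSMUSG00000020310; chromosome 10, 79664559 to 79668537) encodes the addressin of gut venules and follicular stroma that binds the integrin α4β7. It stayed below 1 TPM in each library, with 0.485, 0.321 and 0.708 TPM in R1ko and 0.672, 0.606 and 0.878 TPM in WT. Again R1ko replicates 1 and 2 lay below the WT libraries and R1ko replicate 3 within them. With no filter on low values its log2 fold change was −0.29 ± 0.18 (SE; limma adjusted p = 1).

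**Figure D2:**
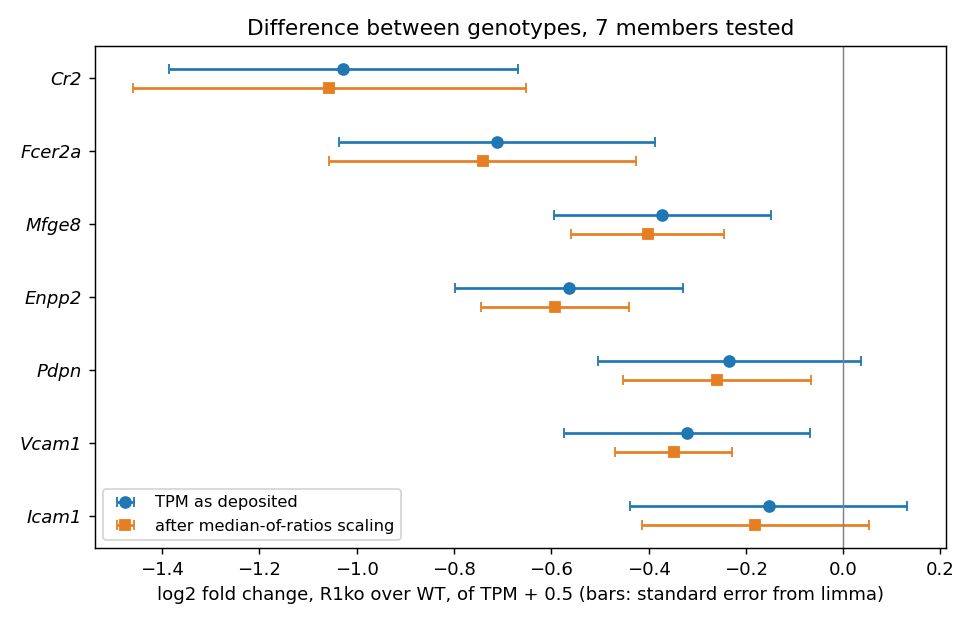
Log2 fold change of R1ko over WT (horizontal axis) for the 7 members tested, with TPM as deposited (circles) and after median-of-ratios scaling (squares). Bars are standard errors from limma. Every estimate is negative, from −1.03 for Cr2 to −0.15 for Icam1 as deposited.

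Single libraries moved these estimates. For each of the 7 members the estimate nearest to 0, or above it for Icam1, was the one without R1ko replicate 2. The ranges with single libraries left out were −1.55 to −0.71 for Cr2, −1.10 to −0.42 for Fcer2a, −0.60 to −0.17 for Mfge8 and −0.78 to −0.42 for Enpp2. They were −0.42 to −0.20 for Vcam1 and −0.55 to −0.04 for Pdpn. The lower ends came without R1ko replicate 3, except for Pdpn, where it came without WT replicate 2.

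Ordered by mean TPM over the 6 libraries, the members ran from Mfge8 (61.3) over Enpp2 (15.4), Pdpn (7.77), Vcam1 (4.14), Icam1 (4.04), Fcer2a (1.81), Cr2 (1.62) and Madcam1 (0.612) to Coch (0.113). In WT colons the ranges of 3 neighbouring pairs overlapped, Pdpn with Vcam1, Vcam1 with Icam1 and Fcer2a with Cr2. In R1ko colons the overlapping pairs were Vcam1 with Icam1, Icam1 with Fcer2a, Fcer2a with Cr2 and Cr2 with Madcam1.

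**Figure D3:**
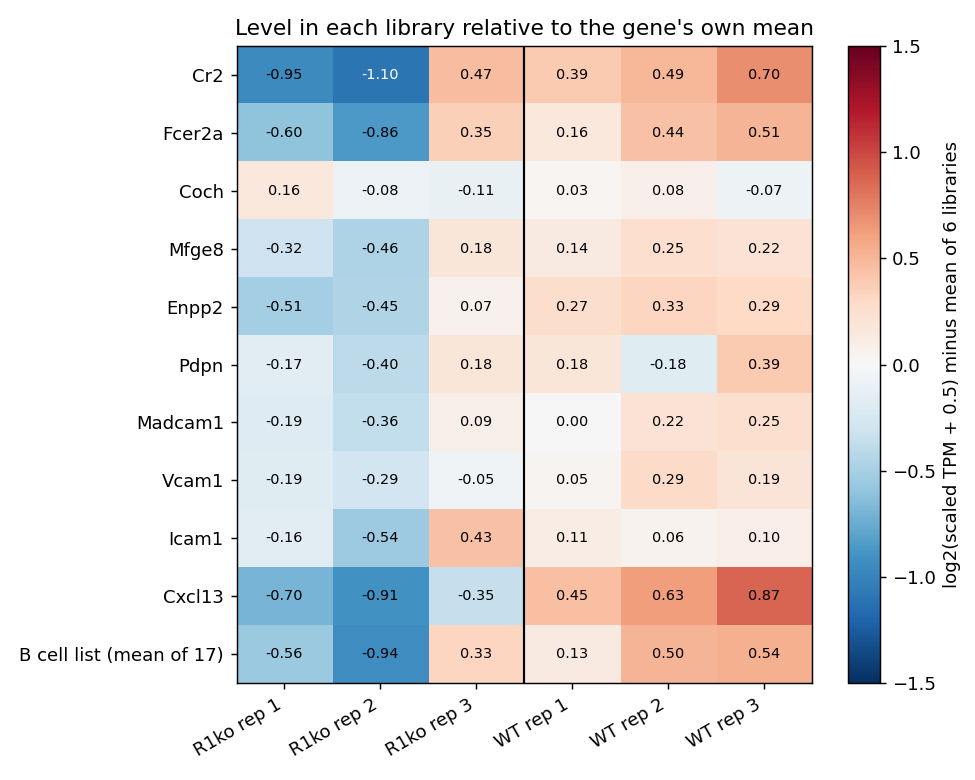
Heat map of log2(scaled TPM + 0.5) less each gene's mean over the 6 libraries (colour and printed number), with R1ko libraries left of the line and WT libraries right of it. The lower rows add the chemokine gene Cxcl13 and the mean of 17 B cell genes. In R1ko replicate 3, Cr2 (0.47), Fcer2a (0.35) and the B cell mean (0.33) are above 0, while Vcam1 (−0.05) and Cxcl13 (−0.35) are below.

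The tested transcripts, 12 in number, all had negative log2 fold changes; 4 of them are the transcripts of both Pdpn genes. Of 27 member transcripts with values, these reached a mean of 1 TPM and 0 passed, beside 13 of 31056 transcripts, or 0.0419%, overall. At an unadjusted p below 0.05, 1 of the 12 was lower in R1ko, against 2.97% of all transcripts. This was ENSMUST00000041591, the most abundant form of Enpp2, with 8.08 ± 1.91 TPM in R1ko and 13.3 ± 2.92 TPM in WT (SD, n = 3). Between genotypes it differed by −0.69 ± 0.25 on the log2 scale (SE; limma adjusted p = 0.934, or 0.341 after scaling). The form ENSMUST00000171545 had 3.13 ± 1.72 TPM in R1ko and 3.60 ± 0.784 TPM in WT. No Cr2 transcript reached a mean of 1 TPM. The largest on average, ENSMUST00000082321, held 38.0, 35.1 and 33.03% of the Cr2 total in R1ko and 34.4, 34.4 and 31.4% in WT. The Cr2 total also holds short forms seen in a single library. ENSMUST00000193436, of 355 bases, made up 59.4% of it in R1ko replicate 2 (0.203 TPM). ENSMUST00000195347, a processed transcript of 357 bases, made up 34.3% in WT replicate 1 (0.754 TPM). Both were at 0 in all other libraries.

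Mfge8 has a long form, ENSMUST00000032825, and a short form, ENSMUST00000107409, which lacks the fourth exon. That exon lies wholly in coding sequence. The long form held 35.7, 37.1 and 43.5% of the Mfge8 total in R1ko, against 39.1, 38.8 and 35.4% in WT, so the shares overlapped. Of the 4 Enpp2 forms with values, 2 hold an exon of 156 bases that the most abundant form lacks, ENSMUST00000171545 and ENSMUST00000173516. Together these 2 held 36.7, 22.0 and 36.0% of the Enpp2 total in R1ko, against 20.5, 28.5 and 29.7% in WT, and these shares overlapped too. Both exons are shown from GENCODE M21 on GRCm38, 5′ to 3′ on the minus strand, because the form groups just compared differ in them; the Enpp2 forms differ in other exons as well. They span chr7:79143278-79143388 in Mfge8 and chr15:54877776-54877931 in Enpp2.
Mfge8 exon: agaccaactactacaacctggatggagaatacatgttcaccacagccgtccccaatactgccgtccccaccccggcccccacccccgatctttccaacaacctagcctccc
Enpp2 exon: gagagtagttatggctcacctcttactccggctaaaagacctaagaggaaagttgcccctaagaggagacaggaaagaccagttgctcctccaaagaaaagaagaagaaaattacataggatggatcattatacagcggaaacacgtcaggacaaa

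B cell genes were low in the same libraries as Cr2 and Fcer2a, R1ko replicates 1 and 2. The 20 follicular B cell genes summed to 36.3, 21.7 and 79.2 TPM in R1ko replicates 1, 2 and 3, against 68.9, 64.9 and 93.3 TPM in WT replicates 1, 2 and 3. Of the 17 tested, 0 passed in either direction, and 17 were negative, beside 44.3% of all genes. Their median log2 fold change was −0.80. At an unadjusted p below 0.05, 11 were lower, against 1.97% of all genes, and 7 after scaling, against 5.74%. The median was −1.23 without R1ko replicate 3 and −0.40 without R1ko replicate 2, the ends of its range with single libraries left out. Ighd, the heavy chain of IgD, had 2.79, 1.61 and 6.20 TPM in R1ko and 6.38, 6.89 and 10.7 TPM in WT (limma adjusted p = 0.132). Fcmr, the IgM receptor, had 0.965, 0.921 and 3.19 TPM in R1ko and 2.84, 3.35 and 5.68 TPM in WT (adjusted p = 0.258).

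Set against the summed B cell TPM of the same library, the members behaved in different ways. Fcer2a amounted to 2.69, 2.90 and 3.03% of that sum in R1ko and 3.12, 2.94 and 3.02% in WT, a narrow and overlapping range. Cr2 amounted to 1.36, 1.58 and 2.80% in R1ko, against 3.20, 2.58 and 2.98% in WT. For Cr2, R1ko replicates 1 and 2 were thus below all WT libraries on this measure as well (two-sided exact permutation p = 0.2, n = 3 each). The same order held for Fcer2a, at values closer together (exact permutation p = 0.3). Icam1 amounted to 9.98, 10.6 and 7.28% in R1ko, against 6.94, 4.90 and 4.94% in WT, without overlap (exact permutation p = 0.1, the smallest that 3 against 3 can give). On this ratio, whose denominator was low in R1ko replicates 1 and 2, 9.9% of all genes tested were higher in R1ko without overlap. Of the 9 members only Icam1 was, and its TPM overlapped between the groups before and after scaling. For Vcam1 the values were 10.3, 13.7 and 5.28% in R1ko and 6.93, 6.15 and 5.55% in WT. A share rises when its denominator falls, and the part of the B cell genes in the member values was not tested.

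**Figure D4:**
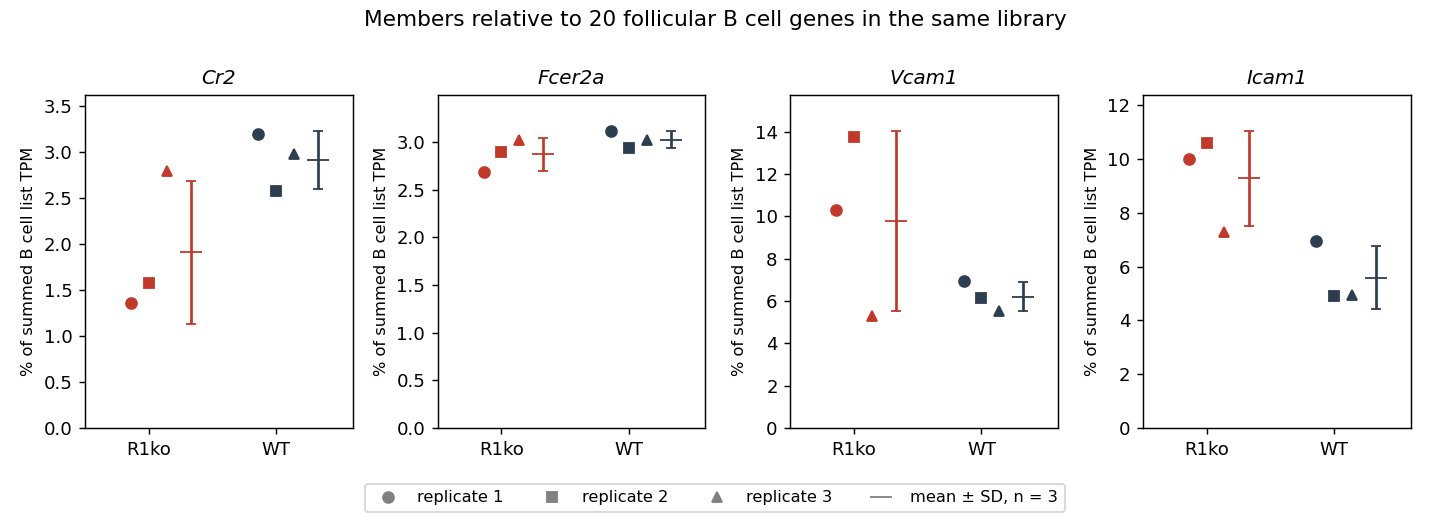
TPM of 4 members as a percentage of the summed TPM of 20 follicular B cell genes in the same library (vertical axes from 0). Symbols mark the replicates of R1ko and WT and the bars the mean ± SD, n = 3. Fcer2a stays between 2.69 and 3.12%, while Icam1 lies between 7.28 and 10.6% in R1ko and between 4.90 and 6.94% in WT; 9.9% of all genes are likewise higher without overlap on this ratio.

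The genes whose pattern over the 6 libraries was most like that of Cr2 included genes of B cells. Likeness was the root mean square difference of log2(TPM + 0.5), each gene centred on its own mean, over 12972 genes. Among the nearest were H2-DMb2 (0.17), Cd79b (0.18), Cxcr5 (0.21) and Fcmr (0.22), and Fcer2a came 6th (0.22). Cd79b is a chain of the B cell receptor complex, and Cxcr5 is the receptor for the follicle chemokine CXCL13. Cxcl13 itself came 37th, Enpp2 53rd and Mfge8 92nd. All values in a library share its scaling, which this measure does not remove. Madcam1 and Coch vary little on this scale because the pseudocount exceeds or nears their values. The nearest to Madcam1 were Ptpn6, Nuak2, Secisbp2, Mcm3ap and Ap1m1 (0.02 to 0.05), and the nearest to Coch were Ces1c, Rgs17, Alg11, D3Ertd751e and Kif5c (0.04 to 0.07).

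Other genes of follicular and lymphoid stroma included 1 that passed. Of 17 listed, 16 were tested, 1 passed as lower, 0 as higher, and 14 were negative, at a median log2 fold change of −0.26. Over all genes 44.3% were negative. At an unadjusted limma p below 0.05, 4 of the 16 were lower, against 1.97% of all genes. After scaling 8 were lower at that p, against 5.74% of all genes. The gene that passed was Cxcl13, with 3.61, 2.63 and 4.76 TPM in R1ko and 9.23, 7.31 and 12.2 TPM in WT (log2 fold change −1.28 ± 0.26, limma adjusted p = 0.0191, or 0.157 after scaling). Over its alternatives the adjusted p of Cxcl13 ran between 0.000182 and 0.999, and it was 0.141 without WT replicate 2 and 0.0739 without WT replicate 3. Unlike Cr2 and Fcer2a, its level in R1ko replicate 3 was below all WT libraries. Ccl19, a chemokine of the T cell zone, had 0.260, 0.436 and 1.83 TPM in R1ko and 2.36, 1.90 and 1.78 TPM in WT (adjusted p = 0.415). Of 17 genes of the lymphotoxin and TNF receptor pathway, 14 were tested, 0 passed and 4 were negative, with a median of 0.05. At an unadjusted limma p below 0.05, 0 differed as deposited. After scaling 3, among them Relb, were higher and 0 lower, and the share of all genes higher at that p was not counted. Ltb, a subunit of lymphotoxin, had 1.84, 1.25 and 5.72 TPM in R1ko and 3.67, 3.48 and 4.03 TPM in WT. Relb, the NF-κB subunit of the lymphotoxin pathway, had 58.6, 56.9 and 65.9 TPM in R1ko and 48.7, 42.6 and 54.8 TPM in WT (limma adjusted p = 1.0 for both).

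The partners of the members did not pass either. Among 10 tested integrin genes and other partners of the adhesion molecules the median was −0.03; Itga4, a subunit of the integrins that bind Vcam1 and Madcam1, had 2.14, 1.13 and 2.35 TPM in R1ko and 2.74, 1.81 and 2.55 TPM in WT (limma adjusted p = 1.0). The 13 tested complement and IgE receptor partners had a median of 0.02 (C4b, Cd46), and the 9 partners of lysophosphatidic acid and podoplanin −0.09 (Lpar5, Ezr). In each of these lists 0 genes passed, and 0 had an unadjusted limma p below 0.05 with TPM as deposited. After scaling, Lpar5 and Ezr were higher and Lpar6, named after its values were seen, lower at that p. The 7 tested genes of high endothelial venules and their sulfation enzymes had a median of −0.08, 5 were negative and 0 passed. Chst4, a sulfotransferase, had 17.9, 17.8 and 18.3 TPM in R1ko and 14.6, 7.92 and 16.1 TPM in WT, without overlap (limma adjusted p = 1.0). It was the 1 gene of this list with an unadjusted limma p below 0.05 (0.0374, or 0.00850 after scaling). Whether venules or other cells of the colon express it was not tested. The list holds 12 genes. Fut7 and Glycam1 were picked from its untested genes after their values were seen, so they do not stand for the others. Fut7, a fucosyltransferase that makes selectin ligands, had 0.0338, 0.0265 and 0.127 TPM in R1ko and 0.278, 0.155 and 0.257 TPM in WT, without overlap. Among all genes tested 1.82% were lower in R1ko without overlap, and Fut7 lay below the level tested. Glycam1, a mucin of such venules, had 0.0923, 0.0748 and 0.553 TPM in R1ko and 1.76, 0.888 and 0.387 TPM in WT, with overlap.

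Markers of the other cells that express members were read as whole lists. The 5 tested lymphatic endothelial genes had a median of −0.21, with Ccl21a at 41.7, 38.0 and 60.9 TPM in R1ko and 71.2, 50.3 and 65.5 TPM in WT; Ccl21a is also in the stroma list. The 9 blood endothelial genes (Pecam1, Egfl7), 11 fibroblast genes (Col3a1, Pi16) and 8 smooth muscle genes (Actg2, Myh11) had medians of −0.03, −0.06 and −0.07. Estimates were negative for 5 of 5 lymphatic, 8 of 9 blood endothelial, 7 of 11 fibroblast and 6 of 8 smooth muscle genes. Over all genes 44.3% were negative. Among immune cells, the medians were 0.10 for 6 tested germinal centre genes (Mki67, Bcl6), −0.13 for 7 plasma cell genes (Pou2af1, Sdc1), −0.23 for 5 T cell genes (Cd2, Trbc1) and −0.12 for 9 macrophage and dendritic cell genes (Clec10a, Csf1r). Of these, 2 germinal centre, 5 plasma cell, 3 T cell and 8 macrophage and dendritic cell genes were negative. The germinal centre and plasma cell lists hold 10 genes each, and the rest were too low to test. Levels within a list differed widely, with WT means of 111 TPM for Sdc1 and 1.47 TPM for Pou2af1. Which cells of the whole colon express these genes was not tested, so the medians do not measure germinal centres or plasma cells. The plasma cell median ran between −0.41 (without R1ko replicate 1) and 0.15 (without WT replicate 3). No gene of these 8 lists passed, and 0 had an unadjusted limma p below 0.05 with TPM as deposited. After scaling, Mki67, Col3a1, Ccl21a, Cd2 and Actg2 were lower and Sdc1 and Gsn higher at that p, where 5.74% of all genes were lower. Gsn is named after its values were seen.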

How the data were processed

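RNA was measured in whole colon of 3 R1ko and 3 WT mice. The authors deposited 1 table of TPM per transcript. Per the submitters' processing notes these came from kallisto 0.43.1, with tests in sleuth and the build mm10, and the sleuth results were not used here. Its 132639 lines held 131206 transcripts, since 1433 lines gave a transcript again with equal values and were dropped. No value was given for 43008 transcripts. Another 1380 had no gene name and were left out of the tests. Annotation was GENCODE M21, which may differ from the authors' transcript set.

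TPM were summed per gene symbol and tested with limma 3.58.1 in R 4.3.3 (lmFit, eBayes with a variance trend) on log2(TPM + 0.5), where the mean over the 6 libraries reached 1 TPM, with Benjamini-Hochberg adjustment. Single values were compared with exact permutation tests in scipy 1.17.1. The model was tested on simulated data. Libraries were taken as separate mice from the series' design text. With depth unknown, no counting interval is given.

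The members and the other 20 gene lists (224 genes) were chosen with earlier results of these data known. All members are named, and of each other list up to 4 genes past the threshold, or the 2 with the smallest p. The 5 genes most like Cr2, Madcam1 and Coch are named without predicted genes, pseudogenes and immunoglobulin segments. Some genes that these rules name are not reported here. Alternatives were pseudocounts of 0.1 and 1, quantile normalization, median-of-ratios scaling, no filter, a minimum mean of 5 TPM, a replicate block, no variance trend, robust variance estimation, an adjusted p of 0.1 and each library left out in turn.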

Additional observations from a re-analysis of the deposited data

How the results depend on the processing

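The count of member genes past the threshold stayed at 0 under every alternative except with single libraries left out, where it ran from 0 to 1, the 1 being Cr2 without R1ko replicate 3. Every log2 fold change of a member under the alternatives was negative except that of Icam1 without R1ko replicate 2. The filters, the replicate block, no variance trend and robust variance estimation leave each estimate unchanged, so its sign could not differ there. With single libraries left out, Icam1 ran between −0.45 and 0.14. The members' median ran from −0.60 to −0.20 with single libraries left out. In each alternative it moved by less than the SD between replicates, 0.35. Leaving out 1 of 3 libraries can hardly move it further, so this does not show that the median is stable. Without WT replicate 2 the members' median was −0.55, where the median of all genes was −0.13. Member transcripts past the threshold stayed at 0 in all alternatives.

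Counts over all genes were less stable. Against 38 as reported, 24 genes passed with a pseudocount of 0.1, 2 with no filter, 142 with a filter at 5 TPM, 6 after median-of-ratios scaling, 7 after quantile normalization and 83 with robust variance estimation, and between 19 (without WT replicate 2) and 307 (without WT replicate 1) with single libraries left out. Of the 6 after scaling, 5 were higher and 1 lower in R1ko, and of the 7 after quantile normalization 5 were higher and 2 lower. For transcripts, against 13, the counts were 7 with a pseudocount of 0.1, 1 with no filter, 28 at an adjusted p of 0.1 and 1 to 57 with single libraries left out.

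Replicate numbers are shared between the groups. Deviations of same-numbered libraries from their group means correlated at 0.052, 0.13 and 0.18. Those of differently numbered libraries correlated at −0.24 to 0.098. With 3 libraries in each group, these values cannot decide whether the libraries are paired. With the replicate block, 71 genes and 1 transcript passed, and no member did. The standard error of each tested member was smaller with the block, for Cr2 0.26 against 0.36. The depth of the libraries is unknown, and Coch and Madcam1 were too low to test.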

Other observations

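Of the 8 adipocyte genes, which are those summed beside Enpp2, 1 passed as higher in R1ko, and their median log2 fold change was 1.13. That gene was Cfd, the protease adipsin, with 70.0, 82.3 and 95.9 TPM in R1ko and 46.9, 13.8 and 33.7 TPM in WT (limma adjusted p = 0.00817, or 0.286 after scaling and 0.138 without WT replicate 2, in a range of 9.13e-12 to 1 over its alternatives). Retn, the adipokine resistin, had 7.49, 8.20 and 9.47 TPM in R1ko and 3.71, 1.75 and 5.63 TPM in WT (adjusted p = 0.0856). Of 9 squamous and skin genes, 2 passed as lower, Krt25 and Tchh of the hair follicle, and 0 after scaling. The other 7 were positive, and the median of the 9 was 0.53, or −0.03 without WT replicate 2. Without that library the limma adjusted p of Tchh was 0.0819. Krt25 had 2.70, 1.499 and 2.84 TPM in R1ko and 20.9, 2.86 and 12.1 TPM in WT, so WT replicate 2 was close to the R1ko libraries.

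The 10 colon epithelium genes had a median of 0.16, with Krt20 and Slc26a3 having the smallest p, and the 8 genes of glia and neurons 0.11 (Uchl1, Sox10), with 0 passing in both lists; after scaling, 2 and 1 of them were higher at an unadjusted limma p below 0.05. Of 7 tested mitochondrial and red blood cell genes the median was 0.20, or −0.09 without R1ko replicate 3, and 0 passed. Among these, mt-Cytb had 7723, 7139 and 7188 TPM in R1ko and 5576, 5113 and 6219 TPM in WT.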
